A study of Mus musculus with 6 samples.

Results

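The genes described here are 40 genes of autophagy and the lysosome, taken by symbol from a list and grouped by role into 11 classes. All 40 were present among the 24411 symbols of the count files, and all 40 passed the filter on low counts, as did 13076 genes in all. Counts came from 6 RNA-seq libraries of wild-type C2C12 myotubes. C2C12 is a mouse myoblast cell line, and its cells fuse into multinucleate muscle fibres in low-serum medium. In 3 libraries the fully differentiated cultures had been kept for 72 h with the solvent DMSO, and in the other 3 with Sardomozide at 10 µM for the same time. Sardomozide inhibits the enzyme encoded by Amd1, S-adenosylmethionine decarboxylase, which supplies the aminopropyl groups for spermidine and spermine. The labels name 1 cell line and do not state whether replicates of a group were separate cultures. The p-values set the group difference against the spread of these samples only. That spread may be technical, so the p-values may not extend to new cultures.

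Macroautophagy encloses cytoplasm in a double membrane and delivers it to the lysosome for breakdown. A kinase complex starts the process, a lipid kinase marks the growing membrane, a pair of ubiquitin-like conjugation systems attaches ATG8 proteins (the LC3 and GABARAP families) to it, and receptors such as p62 tie cargo to ATG8 proteins. The transcription factors TFEB, TFE3 and MITF bind an E-box in the promoters of many lysosomal and autophagy genes. In muscle the pathway removes worn mitochondria and supplies amino acids during fasting. Polyamines touch it by a known route: spermidine is the donor of the hypusine residue of the translation factor eIF5A, and synthesis of TFEB protein has been tied to hypusinated eIF5A. Transcript counts measure neither that modification nor the flux of autophagy.

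Totals ran from 25496323 to 36709804 counts per library. The genes described here had at least 347 counts in DMSO replicate 1, the library with the fewest counts. Myotube markers were abundant in every library, with a summed level of 18967 to 20362 CPM (counts scaled to library size with TMM factors) with DMSO and 18941 to 21508 CPM with Sardomozide over 10 genes. Of those 10, 1 (Myh8) fell and 9 did not pass. Sardomozide replicate 2 stood apart in Ttn, the titin gene, with 4043 CPM against 1372 to 1745 CPM in the other 5 libraries, and had the highest score, 12.8, on principal component 2 (15.4% of variance), with DMSO replicate 1 next at 8.43 and the others from −6.50 to −4.25. Without that library 2 of the 40 genes described here rose and 4 fell, against 3 and 6 with it, and what sets it apart was not tested. Macrophage markers, which matter because macrophages are rich in lysosomes, summed to 2.28 to 2.58 CPM with DMSO and 2.95 to 4.09 CPM with Sardomozide over 7 genes. Adgre1, which encodes the macrophage marker F4/80, and Ptprc, a marker of all leukocytes, were at 0 in every library. Itgam rose, at a low level, from 0.429 ± 0.177 to 1.12 ± 0.335 CPM (SD, n = 3). Fibroblast markers summed to 31.2 to 37.7 CPM with DMSO and 19.4 to 26.2 CPM with Sardomozide over 4 genes, of which Dcn fell. Cycling-cell markers summed to 246 to 267 CPM and 261 to 305 CPM over 5 genes, of which Mki67 rose. Markers of undifferentiated myoblasts or reserve cells summed to 184 to 185 CPM with DMSO and 179 to 192 CPM with Sardomozide. Of these 4 genes 0 passed. The part of these cell types in the results below was not tested, and in bulk RNA fewer cells of a type cannot be told apart from less RNA per cell. Amd1 itself was counted 3 times in DMSO replicate 2 and 0 times in the other 5 libraries, so it gave no check of the labels. Why so few reads were assigned to it was not tested, and its level cannot be read from these counts.

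With Sardomozide, Wipi1, Ulk2, Gabarapl1, Tfe3, Atg13 and Sqstm1 fell and Hexa, Atg12 and Neu1 rose, all by less than 1.5-fold. The largest change was that of Wipi1, a reader of the lipid mark on forming autophagosomes, which fell by 23% (percent change of the fitted fold). Of the 40 genes, 3 rose, 6 fell and 31 did not pass edgeR's quasi-likelihood test at a Benjamini-Hochberg adjusted p of 0.05. That is 22.5% called, beside 16.3% of the 13076 genes tested (7.88% higher and 8.45% lower). The classes described below hold 2 to 6 genes each, too few to set their counts against the 16.3%. Among the 8365 genes whose mean level was at least that of the lowest of the 40 (14.1 CPM), a comparison chosen after seeing the data, 20.8% were called. The share called is therefore near that of genes at or above this level, a floor that does not match the genes by abundance. Without DMSO replicate 1 only 4 of the 40 were called, 2 higher and 2 lower, and without Sardomozide replicate 3 the count was 4 higher and 3 lower. The groups did not overlap for 15 of the 40 genes, beside 33.5% of all genes tested. A change over 1.5-fold was seen for 0 of the 40 by edgeR's estimates, beside 6.03% of all 13076 genes tested. The latter include genes below 14.1 CPM, and this share was not counted above that level. Of the 40, 13 had an unadjusted p under 0.05 by edgeR. DESeq2 called 2 higher and 5 lower, and limma-voom 3 higher and 5 lower. The median log2 fold change of the 40 was −0.0022, beside −0.00082 for all genes, with 20 above 0 and 20 below. For the 31 genes that did not pass, the 95% intervals of the log2 fold change lay between −0.22 and 0.29, except for Bnip3, whose interval ran from −0.35 to 0.52.

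**Figure D1:**
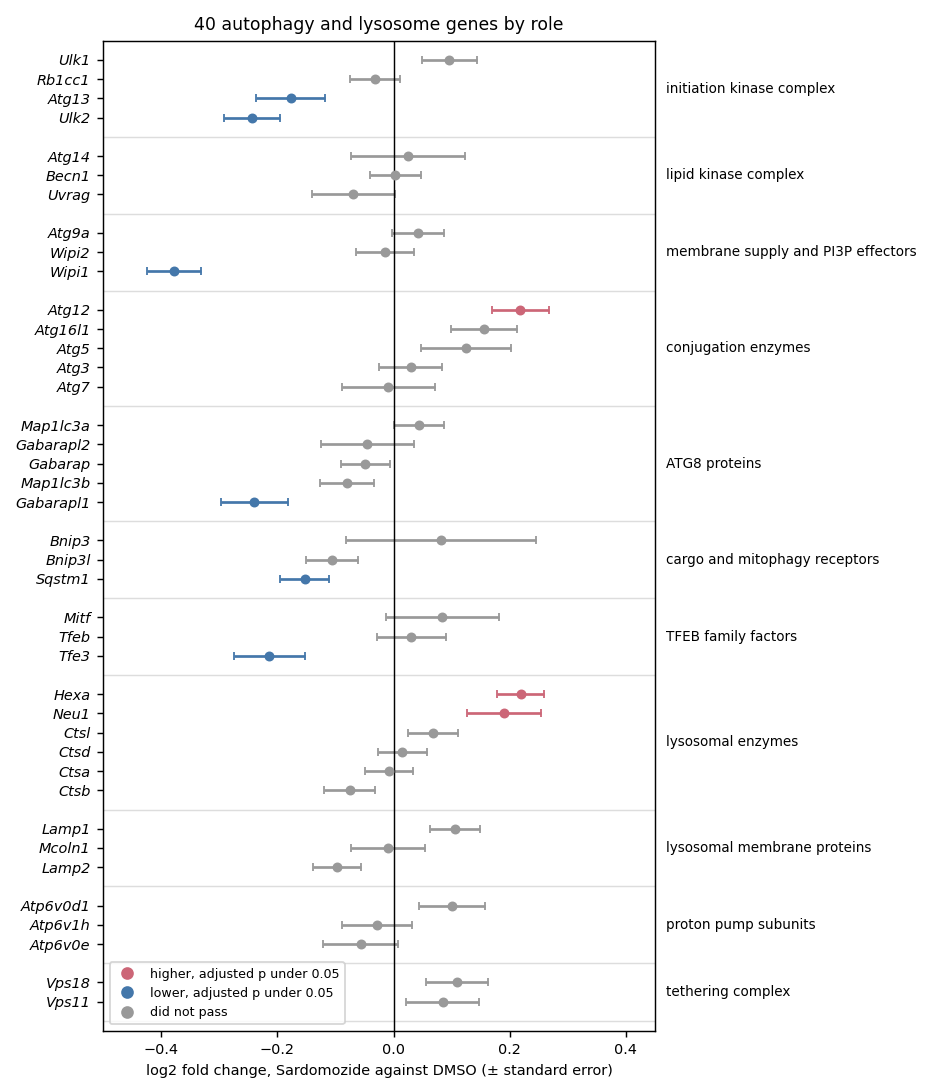
Log2 fold change of each of the 40 genes with Sardomozide against DMSO (horizontal axis; bars are standard errors from edgeR's fit of 3 libraries a group), grouped by role. Red points are the 3 genes that rose, blue the 6 that fell and grey the 31 that did not pass; the values run from −0.38 for Wipi1 to 0.22 for Hexa.

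The 40 genes spanned a wide range of levels. Per length (RPKM, CPM divided by the kilobases of the union of a gene's exons), the highest level with DMSO was that of Ctsd, the gene of the lysosomal protease cathepsin D, at 504 ± 6.72 RPKM (SD, n = 3). Lamp1, a main protein of the lysosomal membrane, followed at 248 ± 4.64 RPKM. Next came Map1lc3a at 172 ± 6.19 RPKM, Sqstm1 at 145 ± 2.42 RPKM, Gabarap at 121 ± 2.27 RPKM and Hexa at 109 ± 1.93 RPKM. The lowest levels were those of Atg7 (3.20 ± 0.065 RPKM) and Mitf (2.21 ± 0.0377 RPKM). The order of the first 4 was the same with Sardomozide, while Hexa (127 ± 2.78 RPKM) passed Gabarap (117 ± 3.99 RPKM). Dividing by the longest annotated transcript kept those first 6 in their DMSO order but raised the values of genes whose longest transcript is much shorter than their exon union, such as Lamp2 from 26.2 to 69.5 RPKM and Tfeb from 7.93 to 19.2 RPKM. Between libraries of a group the genes varied little. The median coefficient of variation of CPM was 2.65% with DMSO and 3.62% with Sardomozide, beside 3.94% and 4.64% for the 8365 genes of at least the same level. Bnip3 had the highest value with Sardomozide, 19.4%. The CPM of all 40 summed to 6418 to 6441 with DMSO and 6347 to 6469 with Sardomozide, and these ranges overlap.

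**Figure D2:**
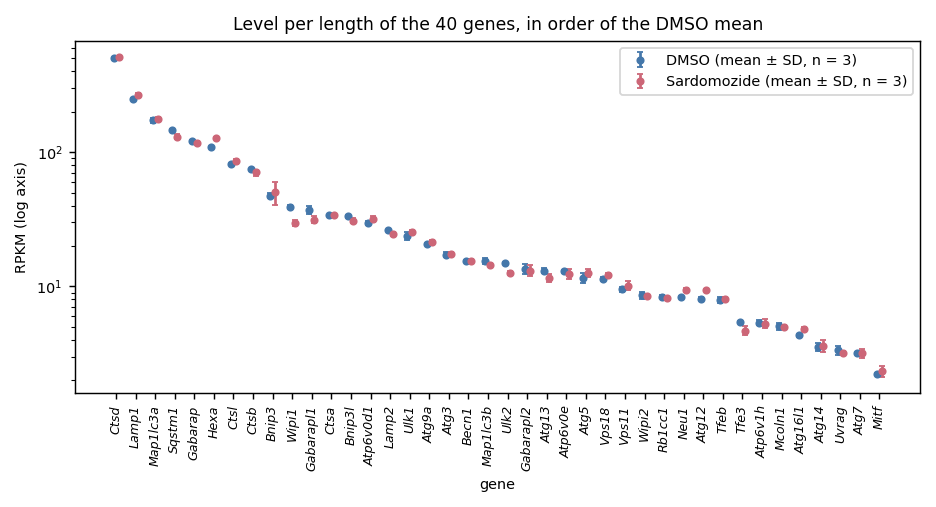
Level per length (RPKM, log axis) of the 40 genes with DMSO (blue) and Sardomozide (red), in the order of the DMSO mean; points are means and bars SDs over 3 libraries. Levels run from 504 RPKM for Ctsd down to 2.21 RPKM for Mitf with DMSO, and the groups lie close together for each gene.

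Promoter windows were read for the 31 of the 40 genes that RefSeq's table matched by symbol (build GRCm38.p6, 250 bases before to 50 after an annotated start, 37 windows). They were searched for CACGTG, the palindromic core of the E-box that TFEB, TFE3 and MITF bind, which reads the same on both strands. Of the 31 genes, 12 (38.7%) held it, beside 1168 of 9928 tested genes with a window (11.8%). By window the share was 32.4%, beside 7.15% of all 32851 windows of that length in the table. The core with GT before and AC after it was in 0 of the 37 windows and in 107 (0.326%) of all windows. None of the 8 genes with a window that rose or fell held the core, and none of the 12 that held it passed edgeR's test (log2 fold changes from −0.06 for Atp6v0e to 0.12 for Atg5). Over all tested genes, 17.6% of those with the core and 15.8% of those without it were called. Some windows with the core lie at an annotated start inside the gene. That of Atg7 begins at 114670846 on chromosome 6, where the gene begins at 114643097. That of Atp6v0e begins at 26676146 on chromosome 17, where the gene begins at 26663231. That of Ctsa begins at 164833523 on chromosome 2, where the gene begins at 164832873, and the Ctsa window from 164832622 held no core. Those of Atg14 and Ctsl, on the − strand, end at 47568684 on chromosome 14 and 64370770 on chromosome 13. These 2 genes begin at 47570649 and 64370890. A match is a run of letters and not a measured site, and no match says only that these letters are absent from the window. To show both kinds, 4 windows were chosen after the values were seen. Lamp1 (chr8:13158911-13159210, + strand) held 4 cores and Mcoln1 (chr8:3500269-3500568, + strand) held 2, while Wipi1 (chr11:109611340-109611639, − strand) and Hexa (chr9:59539290-59539589, + strand), the largest fall and rise among the 40, held none. The Wipi1 window lies inside the gene, which begins at 109611967 on the − strand, so the sequence before that start was not searched. Each window is printed 5′ to 3′ on the gene's strand, with the core in capitals.
Lamp1: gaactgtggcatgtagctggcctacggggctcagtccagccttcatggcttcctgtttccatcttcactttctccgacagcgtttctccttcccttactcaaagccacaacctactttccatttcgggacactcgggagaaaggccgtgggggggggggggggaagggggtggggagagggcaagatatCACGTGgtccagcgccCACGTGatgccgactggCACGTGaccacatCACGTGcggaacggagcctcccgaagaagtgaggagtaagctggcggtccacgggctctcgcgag
Mcoln1: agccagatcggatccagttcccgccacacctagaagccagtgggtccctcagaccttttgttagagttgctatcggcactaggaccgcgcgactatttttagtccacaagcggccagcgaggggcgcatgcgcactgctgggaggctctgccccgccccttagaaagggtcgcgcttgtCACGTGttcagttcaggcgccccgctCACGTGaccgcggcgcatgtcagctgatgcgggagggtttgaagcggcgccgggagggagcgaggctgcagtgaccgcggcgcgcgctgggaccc
Wipi1: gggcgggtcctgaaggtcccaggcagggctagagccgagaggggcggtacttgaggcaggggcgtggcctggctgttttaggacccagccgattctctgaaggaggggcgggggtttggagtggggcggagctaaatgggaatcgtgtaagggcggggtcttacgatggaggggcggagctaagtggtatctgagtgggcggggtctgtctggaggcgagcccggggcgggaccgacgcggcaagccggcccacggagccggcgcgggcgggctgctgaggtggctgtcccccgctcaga
Hexa: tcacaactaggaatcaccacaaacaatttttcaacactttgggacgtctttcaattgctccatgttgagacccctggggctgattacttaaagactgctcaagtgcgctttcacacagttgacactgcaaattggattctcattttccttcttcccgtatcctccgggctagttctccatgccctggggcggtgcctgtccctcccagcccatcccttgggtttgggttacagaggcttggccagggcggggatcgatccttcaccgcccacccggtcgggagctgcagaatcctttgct

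**Figure D3:**
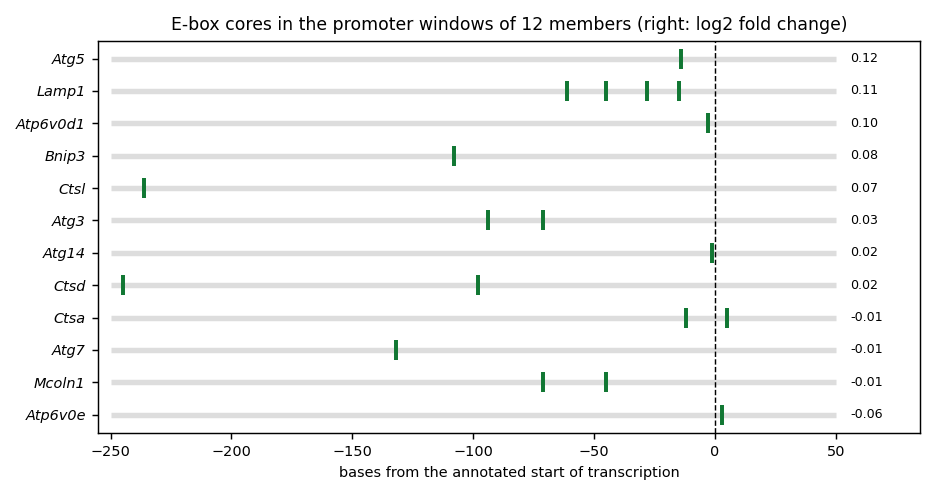
Positions of the E-box core (green ticks) in the promoter windows of the 12 genes that hold it. They are given as bases from the window's annotated start of transcription (dashed line), with each gene's log2 fold change at the right. The 4 cores of Lamp1 lie from −61 to −15, and the genes are ordered from 0.12 for Atg5 to −0.06 for Atp6v0e.

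Among the 4 initiation genes, 2 fell, 0 rose and 2 did not pass (0 rose by DESeq2 and limma-voom too, and the 2 that fell were the class's only genes with an unadjusted p under 0.05). Ulk2 (chromosome 11, 61775649 to 61855073, GRCm38), which encodes a kinase that starts autophagy, had 91.1, 87.9 and 89.5 CPM with DMSO and 75.0, 78.6 and 73.2 CPM with Sardomozide. All 3 Sardomozide libraries lay below all DMSO libraries, a log2 fold change of −0.24 ± 0.048 (SE, edgeR adjusted p = 0.00144), called without any 1 library too. Ulk1, the gene of the related kinase ULK1, had 146, 152 and 164 CPM with DMSO and 170, 164 and 161 CPM with Sardomozide. Its groups overlapped and it did not pass (0.10 ± 0.048, edgeR adjusted p = 0.184). Whether Ulk1 and Ulk2 differed in response was not tested. Atg13 (chromosome 2, 91674618 to 91710576), whose product links the kinases to their scaffold, had 59.6, 57.8 and 54.7 CPM with DMSO and 47.2, 53.8 and 51.2 CPM with Sardomozide. The groups lay close without overlap (−0.18 ± 0.059, edgeR adjusted p = 0.0467). Dropping DMSO replicate 1 or 2 gave adjusted p = 0.183 or 0.118, and dropping Sardomozide replicate 1 or 3 gave 0.177 or 0.0881. The call was also lost with DESeq2, limma-voom, no scaling factor and the replicate block (0.0629, 0.057, 0.0518 and 0.0704). Rb1cc1, the gene of the scaffold FIP200, stood at 123 ± 2.72 and 120 ± 0.683 CPM (SD, n = 3; edgeR adjusted p = 0.674).

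The lipid kinase genes gave no call. Becn1, which encodes the core subunit Beclin 1, had 110, 109 and 109 CPM with DMSO and 114, 109 and 107 CPM with Sardomozide, a log2 fold change of 0.003 with a 95% interval from −0.09 to 0.10. Atg14, which directs the complex to forming autophagosomes, and Uvrag, which directs it to late endosomes, had log2 fold changes of 0.02 ± 0.098 and −0.07 ± 0.071. Of these 3 genes 0 passed with edgeR, DESeq2 or limma-voom, and 0 had an unadjusted p under 0.05. On the opposite strand Becn1 shares 3104 exon bases with Cntd1, and Uvrag and Atg14 share 1589 and 239 with antisense genes. Their counts are uncertain if the counting did not use strand.

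Of the 3 genes for membrane supply and for reading the lipid mark, 1 fell. Wipi1 (chromosome 11, 109573331 to 109611967) encodes a propeller protein that binds the phosphoinositide PI3P. It had 170, 167 and 178 CPM with DMSO and 138, 133 and 125 CPM with Sardomozide. The groups were well apart (171 ± 6.19 and 132 ± 6.79 CPM, SD, n = 3), with a log2 fold change of −0.38 ± 0.047 (edgeR adjusted p = 1.55e-05), and the call held without any 1 library. Wipi2, which encodes the paralogue that recruits the conjugation machinery, had 96.5, 85.6 and 91.1 CPM with DMSO and 91.2, 88.7 and 90.3 CPM with Sardomozide. Its Sardomozide libraries lay within the DMSO range (−0.01 ± 0.05, 95% interval −0.12 to 0.09, edgeR adjusted p = 0.885). Atg9a, the gene of the vesicle scramblase that seeds the membrane, stood at 120 ± 1.33 and 123 ± 5.21 CPM and did not pass (edgeR adjusted p = 0.57). An unnamed transcript on the same strand shares 1832 exon bases with Atg9a, so its counts are uncertain.

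Of the 5 conjugation genes 1 rose, 0 fell and 4 did not pass, with the same counts from DESeq2 and limma-voom. Atg12 (chromosome 18, 46730144 to 46741580) encodes the ubiquitin-like protein that is joined to ATG5. It had 64.0, 61.6 and 62.1 CPM with DMSO and 73.2, 72.4 and 72.7 CPM with Sardomozide. The Sardomozide libraries agreed closely among themselves and lay above the controls (0.22 ± 0.049, edgeR adjusted p = 0.004), also without any 1 library. A stretch of 164 bases of its transcripts matches Syt11 at 95.1% identity. Atg16l1, whose product joins the ATG12 and ATG5 conjugate and places it on the membrane, had 42.0, 42.7 and 40.6 CPM with DMSO and 47.6, 45.5 and 46.5 CPM with Sardomozide. Its groups did not overlap, but it missed the threshold (0.16 ± 0.057, edgeR adjusted p = 0.0662). Atg5 stood at 27.3 ± 2.48 and 29.7 ± 1.93 CPM with overlapping groups (edgeR adjusted p = 0.304). Atg3 and Atg7, the genes of the E2-like and E1-like enzymes, had log2 fold changes of 0.03 ± 0.055 and −0.01 ± 0.08. The summed level of the 5 genes was 204 to 213 CPM with DMSO and 225 to 229 CPM with Sardomozide, of which Atg12 had the largest share.

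The ATG8 proteins are the ubiquitin-like tags that end up on the autophagosome membrane and bind cargo receptors. Per length, Map1lc3a and Gabarap were the highest of the 5 with DMSO, Gabarapl1 followed at 37.2 ± 2.55 RPKM, and Map1lc3b (15.4 ± 0.776 RPKM) and Gabarapl2 (13.5 ± 1.19 RPKM) were lowest, with means ± SD that overlapped. Transcripts of the last 2 match annotated pseudogenes at 95% identity or more over at least 150 bases, so their counts are uncertain. Gabarapl1 (chromosome 6, 129533160 to 129542346) was the only one of the 5 to pass. It had 80.5, 70.4 and 73.7 CPM with DMSO and 65.1, 65.6 and 59.3 CPM with Sardomozide. The groups did not overlap, with DMSO replicate 1 the highest (−0.24 ± 0.058, edgeR adjusted p = 0.00705), and without that library the adjusted p was 0.0672. On the opposite strand a noncoding gene shares 570 of its exon bases. Map1lc3a had 196, 211 and 203 CPM with DMSO and 215, 206 and 208 CPM with Sardomozide, overlapping ranges. Map1lc3b, the gene of the LC3 isoform most used as a marker of autophagosomes, had 122, 113 and 112 CPM with DMSO and 107, 109 and 112 CPM with Sardomozide. It did not pass (−0.08 ± 0.047, edgeR adjusted p = 0.269). Gabarap (222 ± 4.18 and 215 ± 7.35 CPM) and Gabarapl2 (31.5 ± 2.76 and 30.5 ± 2.93 CPM) did not pass either.

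Among receptors, Sqstm1 fell. It encodes p62, which carries ubiquitinated cargo to the autophagosome and is itself degraded there, and it lies on chromosome 11 from 50199366 to 50210827. It had 494, 491 and 479 CPM with DMSO and 457, 423 and 437 CPM with Sardomozide. Every Sardomozide library lay below every control (−0.15 ± 0.042, edgeR adjusted p = 0.017). It shares 580 exon bases with Mrnip on the opposite strand. Dropping DMSO replicate 1 or 2 gave an adjusted p of 0.076 or 0.0599, and dropping Sardomozide replicate 2 or 3 one of 0.0678 or 0.0532. Bnip3 and Bnip3l encode receptors of the outer mitochondrial membrane that call mitochondria to autophagosomes. Bnip3 had 102, 108 and 112 CPM with DMSO and 131, 121 and 88.8 CPM with Sardomozide. Sardomozide replicates 1 and 2 lay above every control and replicate 3 below every control, so the gene did not pass (0.08 ± 0.16, edgeR adjusted p = 0.802). Without Sardomozide replicate 3 it passed as a rise (0.23, adjusted p = 0.00888), and without Sardomozide replicate 1 its log2 fold change was −0.03. Bnip3l had 127, 126 and 133 CPM with DMSO and 120, 123 and 115 CPM with Sardomozide, below the controls in all 3 libraries, and did not pass (−0.11 ± 0.045, edgeR adjusted p = 0.116). Transcripts of both match annotated pseudogenes at the identity named above.

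Of the 3 factors of the TFEB family Tfe3 fell, and Tfeb and Mitf did not pass. Whether their responses differ was not tested. Tfe3 (chromosome X, 7762560 to 7775202) had 51.1, 49.4 and 50.7 CPM with DMSO and 47.1, 42.6 and 40.6 CPM with Sardomozide. The groups did not overlap, and the Sardomozide libraries were the more spread (−0.21 ± 0.061, edgeR adjusted p = 0.0204). Dropping DMSO replicate 1 or 3 gave an adjusted p of 0.0766 or 0.0664, and dropping Sardomozide replicate 2 or 3 one of 0.0537 or 0.104. Tfeb had 42.6, 44.6 and 47.7 CPM with DMSO and 45.1, 45.4 and 47.5 CPM with Sardomozide. Its Sardomozide libraries lay inside the control range (0.03 ± 0.059, 95% interval −0.09 to 0.15, edgeR adjusted p = 0.783). Mitf, at 13.7 ± 0.234 and 14.5 ± 1.35 CPM, was the least abundant of the 3 and of all 40 genes (edgeR adjusted p = 0.614).

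Among 6 lysosomal enzyme genes, 2 that encode glycosidases rose, 0 fell and 4 that encode proteases did not pass. DESeq2 called 1 higher and limma-voom 2, and neither called any lower; the 2 that rose were the only ones with an unadjusted p under 0.05. Hexa (chromosome 9, 59539540 to 59565109) encodes the alpha subunit of beta-hexosaminidase, which breaks down the ganglioside GM2. It had 214, 220 and 221 CPM with DMSO and 260, 252 and 250 CPM with Sardomozide. All 3 Sardomozide libraries were clearly above the controls (218 ± 3.84 and 254 ± 5.55 CPM, SD, n = 3; 0.22 ± 0.041, edgeR adjusted p = 0.000902), also without any 1 library. Neu1 (chromosome 17, 34931253 to 34935953), the lysosomal sialidase gene, had 30.9, 30.7 and 31.4 CPM with DMSO and 36.1, 36.1 and 34.0 CPM with Sardomozide. Its groups did not overlap (0.19 ± 0.063, edgeR adjusted p = 0.0445), but the call was lost with DESeq2 (adjusted p = 0.0625), with the replicate block (0.0739) and without any library other than Sardomozide replicate 3. Those 5 adjusted p-values ran from 0.092 without DMSO replicate 3 to 0.122 without DMSO replicate 2, with 0.113 without DMSO replicate 1 and 0.1 and 0.105 without Sardomozide replicate 1 or 2.

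Of the 4 protease genes, Ctsd was by far the most abundant. Ctsd had 1178, 1172 and 1202 CPM with DMSO and 1190, 1209 and 1191 CPM with Sardomozide, overlapping ranges with a 95% interval of the log2 fold change from −0.07 to 0.10. Ctsl, the cathepsin L gene, had 534, 525 and 531 CPM with DMSO and 581, 551 and 533 CPM with Sardomozide, with only Sardomozide replicate 3 inside the control range (0.07 ± 0.043, edgeR adjusted p = 0.316). Ctsb, the cathepsin B gene, had 454, 452 and 443 CPM with DMSO and 401, 437 and 442 CPM with Sardomozide, just below the controls (−0.08 ± 0.044, edgeR adjusted p = 0.268). Ctsa, whose product also protects the sialidase NEU1 in the lysosome, stood at 160 ± 1.74 and 159 ± 3.73 CPM. Ctsa, Ctsb, Ctsd, Ctsl and Hexa share exon bases with neighbouring genes, and whether the counting used strand is not given in the sources used here. For Ctsd the neighbour lies on the same strand and shares 808 bases. Ctsl shares 395 bases with a pseudogene on its strand and 1742 with an antisense gene, so the counts of both are uncertain.

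**Figure D4:**
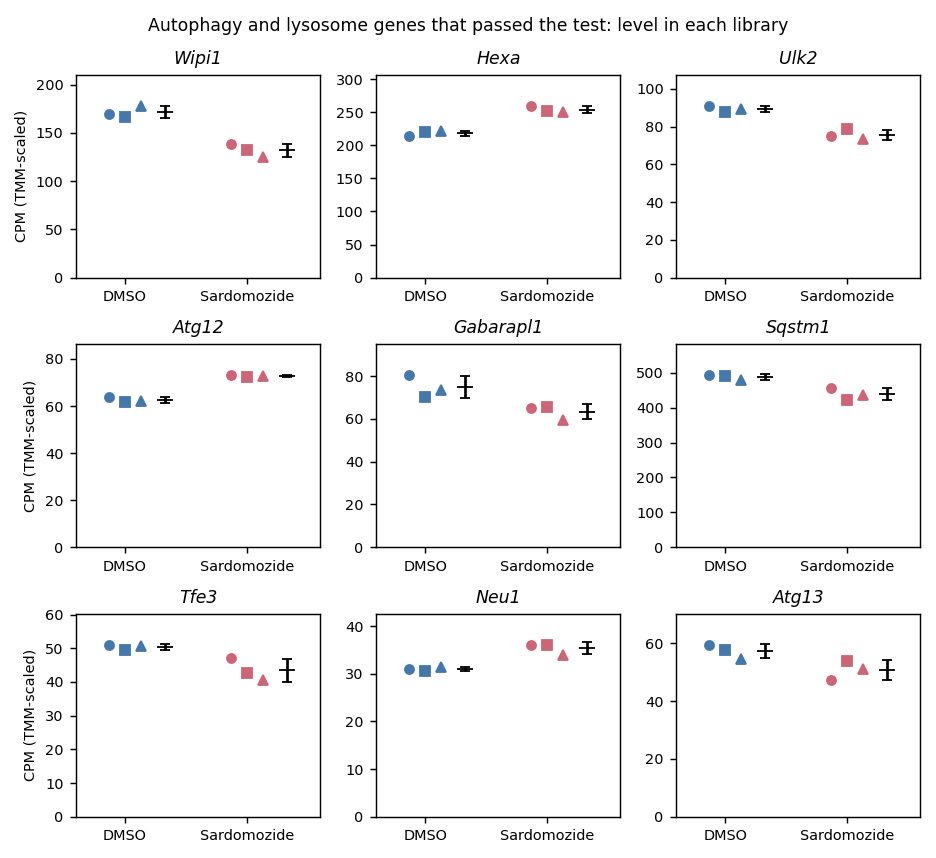
Level (TMM-scaled CPM, axis from 0) in each library of the 9 genes that passed, with DMSO in blue and Sardomozide in red; circles, squares and triangles are replicates 1, 2 and 3, and the black mark is the mean with its SD (n = 3). In each panel the groups do not overlap, and the distance between them is small against the level, as for Hexa (218 and 254 CPM).

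The 3 lysosomal membrane genes, 3 proton pump genes and 2 tethering genes gave 0 calls with edgeR, DESeq2 and limma-voom, and 2, 0 and 0 of them had an unadjusted p under 0.05. Lamp1 and Lamp2, the genes of the main coat proteins of the lysosomal membrane, lay apart between groups in opposite directions without passing. Lamp1 had 658, 678 and 656 CPM with DMSO and 710, 737 and 697 CPM with Sardomozide (0.11 ± 0.042, edgeR adjusted p = 0.0947). Lamp2 had 251, 251 and 249 CPM with DMSO and 229, 231 and 243 CPM with Sardomozide (−0.10 ± 0.041, edgeR adjusted p = 0.118). Mcoln1, the gene of the lysosomal calcium channel TRPML1, stood at 38.0 ± 2.10 and 37.8 ± 1.47 CPM. The pump that acidifies the lysosome was represented by Atp6v0d1 (53.0 ± 1.83 and 56.8 ± 2.86 CPM), Atp6v1h (52.4 ± 1.99 and 51.4 ± 3.86 CPM) and Atp6v0e (48.0 ± 1.17 and 46.2 ± 4.26 CPM), all with overlapping groups. Vps11 and Vps18, core subunits of the complexes that tether lysosomes to their fusion partners, had log2 fold changes of 0.08 ± 0.062 and 0.11 ± 0.054. The Vps18 libraries did not overlap (51.8, 55.1 and 55.4 CPM with DMSO; 57.7, 57.4 and 60.2 CPM with Sardomozide; edgeR adjusted p = 0.18).

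A wider list of 148 other autophagy and lysosome genes was counted by the same roles. Of these, 146 were in the files and 141 were tested, and 12 rose, 11 fell and 118 did not pass. That is 16.3% called, the same to this precision as for all genes tested. Among the 8365 genes of at least 14.1 CPM 20.8% were called, but the wider list also has genes below that level. Dropping DMSO replicate 2 left 6 that rose and dropping DMSO replicate 3 left 7. The number that fell was 5 when DMSO replicate 1 was dropped, 6 when DMSO replicate 3 was, and 7 when Sardomozide replicate 3 was. The median log2 fold change of the 141 was 0.008. By role the share called was 0% for conjugation, 11.1% for lysosomal membrane, 15.4% for pump and 15.8% for receptor genes. It was 16.7% for lipid kinase, membrane supply, TFEB control and enzyme genes, 25% for tethering and 50% for initiation (2 genes tested). From each role, the called gene with the smallest adjusted p in each direction is named here, with edgeR's adjusted p throughout.

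In the initiation complex Atg101, whose product stabilises ATG13, rose from 36.6 ± 0.744 to 43.2 ± 0.582 CPM (SD, n = 3; adjusted p = 0.0067). Pik3c3, the catalytic subunit gene of the lipid kinase, fell from 27.3 ± 0.631 to 23.2 ± 1.82 CPM (adjusted p = 0.0379). The replicate block ended that call, as did dropping any single library except Sardomozide replicate 2 (adjusted p up to 0.14). Atg2b, a lipid transfer protein gene, rose from 91.4 ± 4.0 to 102 ± 5.63 CPM (adjusted p = 0.0439). It was not called by DESeq2, by limma-voom or with the replicate block, nor once any single library but DMSO replicate 1 or Sardomozide replicate 3 was dropped (adjusted p up to 0.178). Of 7 other conjugation genes 0 passed with edgeR, DESeq2 or limma-voom, and 0 had an unadjusted p under 0.05. Among 19 other receptors and mitophagy genes 2 rose and 1 fell. Pink1, the gene of the kinase that marks damaged mitochondria, fell from 154 ± 3.15 to 130 ± 9.12 CPM (log2 fold change −0.25 ± 0.049, adjusted p = 0.00151), also without any 1 library. Fam134b, a receptor gene for autophagy of the endoplasmic reticulum, rose from 130 ± 1.53 to 144 ± 4.67 CPM (adjusted p = 0.0196). Dropping DMSO replicate 1, DMSO replicate 2 or Sardomozide replicate 1 ended it (adjusted p up to 0.0774).

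Of 18 tested genes that control TFEB factors, most of them parts of the mTORC1 kinase and its lysosomal anchor, 3 rose, 0 fell and 15 did not pass. That is 16.7% called, near the 16.3% of all 13076 genes tested. DESeq2 and limma-voom also gave 3 and 0, and 4 of the 18 had an unadjusted p under 0.05. Rptor, which encodes the mTORC1 subunit Raptor, rose from 218 ± 3.72 to 244 ± 3.17 CPM (0.16 ± 0.04, adjusted p = 0.00749, and 0.0507 without DMSO replicate 3). Among 36 tested lysosomal enzyme genes of the wider list 1 rose and 5 fell. Galns, a sulfatase gene, rose from 20.6 ± 0.956 to 26.7 ± 0.707 CPM (0.37 ± 0.075, adjusted p = 0.00178). Ctso, a cysteine protease gene, fell from 13 ± 0.353 to 9.27 ± 0.877 CPM (−0.49 ± 0.11, adjusted p = 0.00323). Both calls held without any 1 library. Of 18 lysosomal membrane and lumen transport genes 0 rose and 2 fell with edgeR, DESeq2 and limma-voom alike, and 3 had an unadjusted p under 0.05. Npc2, which encodes a lumenal cholesterol carrier, fell from 229 ± 9.78 to 199 ± 13.7 CPM (adjusted p = 0.00765, and up to 0.0632 without DMSO replicate 1 or Sardomozide replicate 3). Of 13 other pump genes tested 2 rose (1 by DESeq2 and by limma-voom) and 0 fell by any of the 3 tools, and Atp6v1g1 went from 183 ± 5.09 to 209 ± 10.5 CPM (adjusted p = 0.00561), also without any 1 library. Among 16 tethering and fusion genes 2 rose and 2 fell. Arl8b, the gene of a small GTPase that moves lysosomes along microtubules, rose from 97.9 ± 2.70 to 116 ± 3.5 CPM (0.25 ± 0.045, adjusted p = 0.000737). Vps8, a tether gene of early endosomes, fell from 56.1 ± 0.933 to 46.6 ± 3.35 CPM (−0.27 ± 0.059, adjusted p = 0.00378). Both held without any 1 library.

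**Figure D5:**
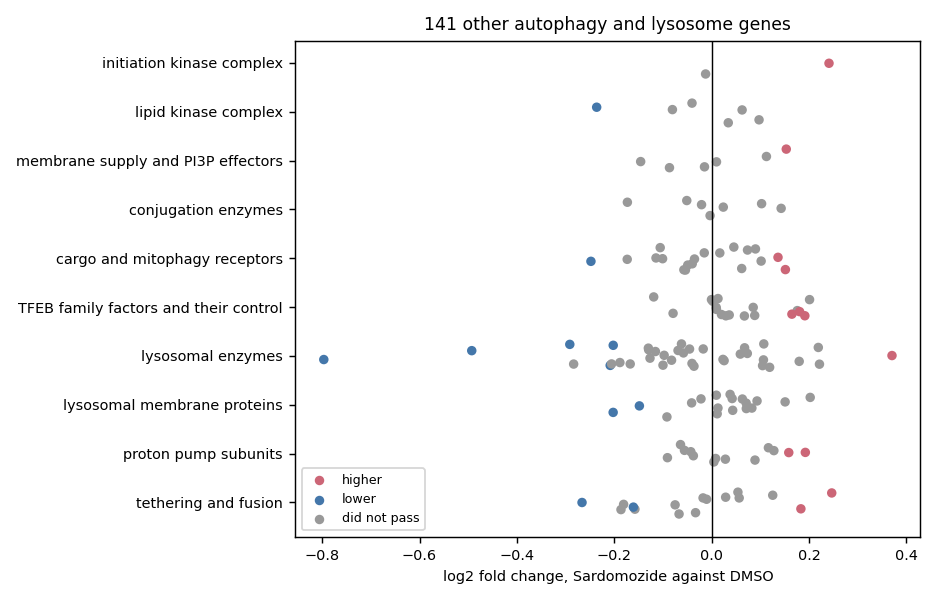
Log2 fold change with Sardomozide against DMSO (horizontal axis) of the 141 tested genes of the wider list, 1 point a gene, by role; vertical scatter within a role has no meaning. Red points are the 12 genes that rose and blue the 11 that fell, and most points of each role lie close to 0.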

How the data were processed

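RNA was sequenced from 3 DMSO and 3 Sardomozide libraries, grouped by their labels. Each library has a deposited file of the authors' unnormalized counts by gene symbol. The submitters' processing notes name STAR, StringTie and DESeq2, with GRCm38 and mm10 as builds; for versions, annotation, strand setting and multi-mapping reads, nothing is given in the sources used here.

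Genes passing filterByExpr (minimum count 10, minimum total 15) were TMM-scaled and tested with edgeR 4.0.16 in R 4.3.3 (robust quasi-likelihood fit, two-sided, treatment as single term). Benjamini-Hochberg adjustment covered all 13076 genes. Standard errors derive from the fold change and its F statistic. RPKM and coordinates used exon unions of GENCODE M21. Near-identical transcripts were sought with blastn 2.17.0. Alternatives were RLE and no scaling, DESeq2 1.42.0, limma-voom (limma 3.58.1), other filters, the replicate block, a threshold of 0.01 and each library left out. Steps were tested on simulated counts. A count of 0 allows up to 3 counts, 0.0823 to 0.118 CPM, for counting error only. Replicates differed beyond sampling noise (chi-square per degree of freedom 5.45 to 16.1), and each was counted as 1 sample. That spread does not show that they were separate cultures.

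The genes and lists were chosen with earlier results of these data known. All 40 genes are named, and by role the called gene of the wider list with the smallest adjusted p in each direction. Marker genes with a call were named too. The planned rule for promoters, called genes with the E-box core, found none.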

Additional observations from a re-analysis of the deposited data

How the results depend on the processing

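Of the 9 calls among the 40 genes, those of Wipi1, Ulk2, Hexa and Atg12 held under every alternative run. At a threshold of 0.01, 3 of the 40 were called lower, and over all genes 501 rose and 578 fell; in the wider list 5 rose and 5 fell. With each library left out in turn, 2 to 4 of the 40 rose and 2 to 5 fell. Over all genes 620 to 927 rose and 706 to 1025 fell, and in the wider list 6 to 11 rose and 5 to 14 fell. Such fits have fewer samples, and the cause of the differences between them was not tested. With the replicate block, 2 of the 40 rose and 5 fell, 855 and 965 of all genes, and 9 and 9 of the wider list; the block ended the calls of Atg13 and Neu1. Same-numbered libraries did not deviate together (r = −0.018, −0.051 and −0.014 across genes), so the shared numbers were not taken to pair the samples. Only genes that did not pass changed sign, each without 1 library. Their log2 fold changes without 1 library ran from −0.0236 to 0.0237 for Becn1, −0.0677 to 0.0775 for Atg14, −0.058 to 0.0291 for Wipi2, −0.0552 to 0.0504 for Atg7, −0.117 to 0.0242 for Gabarapl2, −0.0314 to 0.23 for Bnip3, −0.0056 to 0.0762 for Tfeb, −0.0182 to 0.0121 for Ctsa, −0.0533 to 0.0172 for Mcoln1 and −0.0903 to 0.0112 for Atp6v1h. Per length, 75 of 80 group means moved by more than their SD with the longest transcript. Counts of the 40 genes in DMSO replicate 1 ran from 347 for Mitf to 29931 for Ctsd, so counting error differs between them. It was not separated from the spread between libraries, and 3 libraries a group also limit the precision.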

Other observations

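Among genes of the wider list not named by the rule, Ctsc had the largest log2 fold change. Ctsc, which encodes the protease that activates serine proteases of immune cells and is singled out here after its value was seen, fell from 8.66 ± 2.23 to 4.97 ± 1.04 CPM (SD, n = 3), which is −0.80 ± 0.19 on the log2 scale (edgeR adjusted p = 0.011). Dropping DMSO replicate 1 or Sardomozide replicate 1 ended that call (adjusted p up to 0.0625), as did the replicate block. Gm2a, whose product presents the ganglioside GM2 to the enzyme that Hexa encodes, fell from 40.7 ± 2.01 to 33.3 ± 2.16 CPM (−0.29 ± 0.066, edgeR adjusted p = 0.00451), also without any 1 library, while Hexa rose. Gm2a too was chosen after its value was seen.

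Fnip1 and Rheb, 2 more genes of the TFEB control list, rose by 0.19 ± 0.054 and 0.18 ± 0.052 on the log2 scale (edgeR adjusted p = 0.0182 and 0.0203). Dropping DMSO replicate 2 or Sardomozide replicate 3 ended the call of Fnip1 (adjusted p up to 0.0856). Dropping any single library except Sardomozide replicate 1 or 3 ended that of Rheb (adjusted p up to 0.0856).

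Atp6v0c, which encodes the membrane ring of the proton pump, was counted 1, 2 and 0 times in the DMSO libraries and 2, 0 and 0 times in the Sardomozide libraries, while 13 other pump genes of the wider list passed the filter. Its transcript matches a pseudogene that is also a symbol of the files, Atp6v0c-ps2, at 99.7% identity over 387 bases, and that symbol had 0 counts in every library. Its level cannot be read from these counts.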
